A study of Mus musculus with 9 samples.

Results

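The platelet-derived growth factor (PDGF) family was followed through RNA-Seq libraries of cultured vascular progenitor cells, as 7 listed genes out of the 55416 in the deposited count table. These are the ligand genes *Pdgfa*, *Pdgfb*, *Pdgfc* and *Pdgfd*, the receptor genes *Pdgfra* and *Pdgfrb*, and the receptor-like gene *Pdgfrl*. They were found by symbol from the Ensembl identifier of each row, and all 7 passed the filter on low counts. The cells, called AdvSca1-SM, are smooth muscle–derived progenitors of the arterial adventitia that carry the surface protein Sca1. YFP+ and Sca1+ cells had been sorted from aorta and carotid artery of SM22α-Cre-YFP mice that were pooled, so the lineage label depends on Cre driven by a smooth muscle promoter, and the cells were expanded in culture. There were 9 libraries in 3 groups of 3, and all cells had received 0.1% DMSO for 72 h. The Stem group had vehicle alone and, per the study's methods, stem cell medium. That medium is αMEM with basic fibroblast growth factor, epidermal growth factor and more serum than the other groups had. The TGF-β group had 5 ng/mL TGF-β1 in DMEM with 0.1% FBS, and the Both group had the same with 50 μM PFI-3, a compound that occupies the bromodomain of Brg1, a chromatin remodeler. The methods also describe a growth arrest of the cells in stem cell medium with 0.1% FBS before stimulation. From Stem to TGF-β the base medium, its growth factors, the serum and this arrest change along with TGF-β1. Their parts in a difference cannot be told apart. From TGF-β to Both only PFI-3 is added.

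PDGFs are dimeric growth factors, and their receptors PDGFRα and PDGFRβ are tyrosine kinases that pair on ligand binding and signal through PI3K, phospholipase C-γ and RAS-ERK. PDGF-A and PDGF-C bind mainly PDGFRα, PDGF-D binds mainly PDGFRβ, and PDGF-B binds both. In arteries PDGFRα marks fibroblasts and adventitial progenitors, while PDGFRβ is the receptor of smooth muscle cells and pericytes and drives their recruitment and growth.

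Total counts ranged from 35686291 to 47741128 a library. The libraries labeled TGF-β carried the known TGF-β target *Smad7* at a mean of 3492 normalized counts against 1694 in Stem, and *Ly6a*, the gene of Sca1, at 941 against 7635. Stem replicate 2 stood apart from its group, with a chi-square per degree of freedom of 126 and 103 against Stem replicates 1 and 3, compared with 7.34 between those and at most 16.0 within the other groups. The members' values against Stem are therefore also given without it. GEO's protocol text speaks of RNA from liver, but the 5 hepatocyte markers together reached at most 2.63 normalized counts in any library.

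*Pdgfra*, the gene of the receptor for PDGF-A and PDGF-C, fell sharply from Stem to TGF-β and stayed low with PFI-3. In Stem it had 42748, 48433 and 45791 normalized counts in replicates 1 to 3, where a normalized count is a read count scaled to a library of average size by TMM. TGF-β had 5688, 5132 and 5496, and Both had 6611, 5917 and 6275. Every Stem library lay far above every stimulated library, and the lowest Both library lay above the highest TGF-β library. The mean of the 3 libraries was 45657 ± 2845 for Stem, 5438 ± 283 for TGF-β and 6268 ± 347 for Both (SD). The log2 fold change of TGF-β versus Stem was -3.07 (SE 0.0619), an 8.40-fold lower level, with an adjusted p of 1.23e-12 (edgeR's quasi-likelihood test, p-values adjusted by Benjamini-Hochberg), and it was -3.02 without Stem replicate 2. Of all 14879 genes tested, 323, or 2.17%, fell further than *Pdgfra*.

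The promoter of *Pdgfra* is shown because it belongs to the member with the largest fall, and its sequence can be set beside those of the ligand genes below. It runs from 250 bases before to 50 bases after the start in the RefSeq table of build GRCm38.p6, on the plus strand of chr5:75152001-75152300. Capitals mark matches, on either strand, to the short motifs searched here.
*Pdgfra* promoter: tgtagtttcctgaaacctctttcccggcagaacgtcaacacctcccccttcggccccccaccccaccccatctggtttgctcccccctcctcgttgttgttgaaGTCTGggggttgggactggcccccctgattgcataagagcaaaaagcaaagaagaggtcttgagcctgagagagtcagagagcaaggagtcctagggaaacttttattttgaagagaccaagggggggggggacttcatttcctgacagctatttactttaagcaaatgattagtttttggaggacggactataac
The bases just after this start were not found in a GENCODE transcript of the reference used, so the start is that of the RefSeq table alone. The single match is CAGAC, the Smad box bound by TGF-β effectors, read on the other strand. Such a match occurs in 49.5% of 32544 promoters of this length, and the GC content of the window is 51.0% against a median of 53.0%. The match is a description of the letters only.

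*Pdgfrb*, the gene of the receptor for PDGF-B and PDGF-D, moved the opposite way. The Stem libraries had 35608, 34457 and 34038 normalized counts. The TGF-β libraries had 73212, 66596 and 71869, and the Both libraries had 77134, 69238 and 73796. Stem lay below both stimulated groups in every library, whereas TGF-β and Both overlapped. The means were 34701 ± 813, 70559 ± 3497 and 73389 ± 3964 (SD, n = 3 each). TGF-β versus Stem gave a log2 fold change of 1.02 (SE 0.0511), a 2.03-fold higher level with an adjusted p of 2.72e-09 by edgeR. The fold change was just past the 2-fold threshold used here. With total counts as the library scale, which moves the median of all genes by -0.12, the value was 0.90 and no longer past the fold minimum, though its adjusted p stayed below 0.05. Without Stem replicate 2 it was again 1.02.

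*Pdgfrl*, which encodes a secreted protein resembling the extracellular part of PDGFRβ and lacking a kinase, was much less abundant. The Stem libraries had 189, 109 and 147 normalized counts. The TGF-β libraries had 960, 669 and 888, and the Both libraries had 900, 724 and 766. The Stem libraries lay below all others, and the stimulated groups overlapped. The log2 fold change of TGF-β versus Stem was 2.49 (SE 0.179), or 5.64-fold higher, with an adjusted p of 7.97e-08 by edgeR. Replicate spread was wide for this gene, and the fold change was 2.32 without Stem replicate 2, which had the lowest count of the group.

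**Figure D1:**
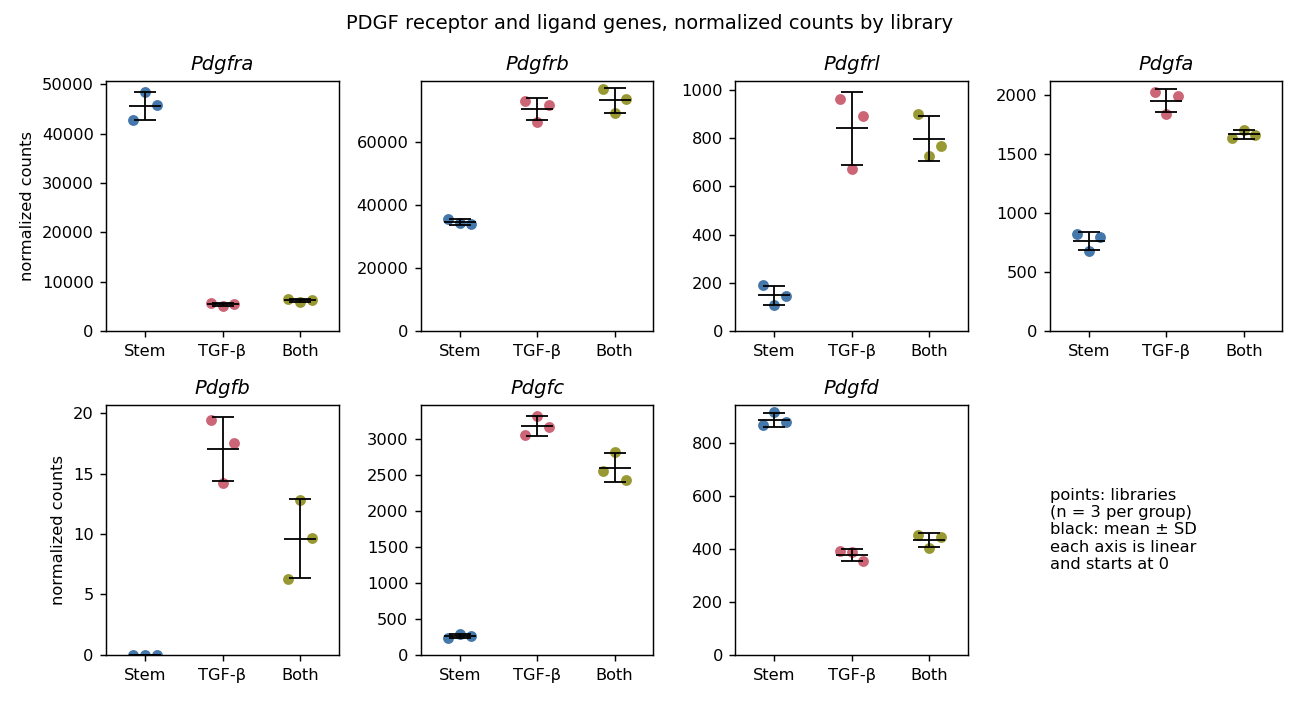
Normalized counts of the 7 PDGF genes by group, on a linear axis from 0 for each gene, with one point for each library and black bars for the mean ± SD of 3 libraries. *Pdgfra* and *Pdgfd* are highest in Stem and the other genes are lowest there, and *Pdgfb* has 0 counts in all 3 Stem libraries.

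To contrast the receptors within a library, counts were divided by the length of the gene's exons joined together, 10024 bases for *Pdgfra* and 5478 bases for *Pdgfrb*. The ratio does not depend on how libraries are scaled. The log2 ratio of *Pdgfra* to *Pdgfrb* was -0.61, -0.38 and -0.44 in the Stem libraries. It was -4.56, -4.57 and -4.58 in the TGF-β libraries and -4.42, -4.42 and -4.43 in the Both libraries. The groups did not overlap. The Stem libraries varied by an SD of 0.117, against 0.0115 in TGF-β and 0.0059 in Both. Counting error alone was 0.0106 to 0.0107 a library in Stem, 0.020 to 0.021 in TGF-β and 0.0175 to 0.0194 in Both. In TGF-β and Both the SD lay below counting error, so it understates the uncertainty there. By these ratios *Pdgfra* made up 41.8% ± 1.97 of the receptor signal per kilobase in Stem (SD, n = 3). The share was 4.04% ± 0.031 with TGF-β1 alone and 4.46% ± 0.017 with PFI-3 added.

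The difference of TGF-β minus Stem was -4.09 on the log2 scale, a 17.1-fold lower ratio, and -4.04 without Stem replicate 2. That of Both minus TGF-β was 0.15, a 1.11-fold higher ratio, and that of Both minus Stem was -3.94. Each of the 3 pairs gave an exact two-sided permutation p of 0.1, also after adjustment over the 3 pairs, which is the smallest that 3 against 3 libraries allow. An exact permutation test of the spread between groups over all 280 divisions of the libraries gave p = 0.00357, again the smallest it can give. The sum of both receptors per kilobase changed less than its parts, from 10889 ± 201 normalized counts for Stem to 13423 ± 666 for TGF-β and 14022 ± 758 for Both.

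**Figure D2:**
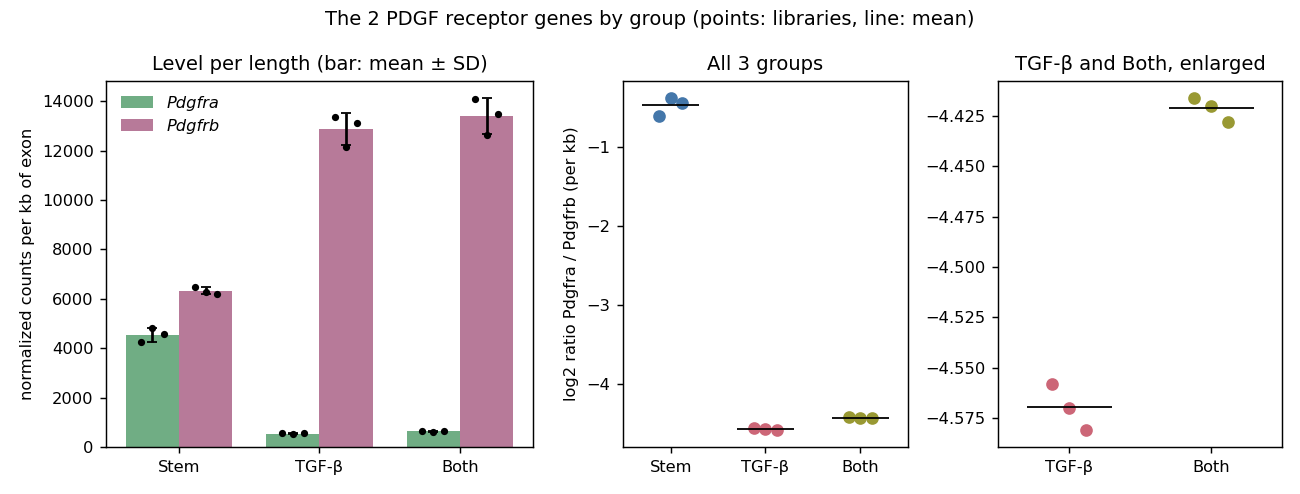
Left, normalized counts per kilobase of joined exons for *Pdgfra* and *Pdgfrb* by group, with bars for the mean ± SD and points for the 3 libraries. Middle and right, the log2 ratio of *Pdgfra* to *Pdgfrb* in each library with a line at the group mean, for all groups and enlarged for TGF-β and Both. The Stem libraries lie between -0.61 and -0.38, and all stimulated libraries lie between -4.58 and -4.42.

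In level per kilobase, *Pdgfrb* stood above 99.0% of the 14843 genes with a known length in Stem libraries, 99.5% in TGF-β and 99.6% in Both. *Pdgfra* stood above 98.6% in Stem libraries, 80.1% in TGF-β and 82.7% in Both. In Stem *Pdgfrb* led with 6335 normalized counts per kilobase against 4555 for *Pdgfra* and their libraries did not overlap, but with the longest single transcript as the length the libraries overlapped, and the mean log2 ratio turned to 0.06, with library values from -0.07 to 0.16. In TGF-β and Both *Pdgfrb* led with either length.

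Among the ligands, *Pdgfc*, whose product must be cleaved outside the cell before it can bind PDGFRα, showed the largest rise that could be estimated. Stem had 235, 287 and 256 normalized counts, TGF-β had 3065, 3328 and 3169, and Both had 2554, 2826 and 2429. All 3 groups were apart, with TGF-β highest. The log2 fold change of TGF-β versus Stem was 3.62 (SE 0.0788), or 12.3-fold, with an adjusted p of 2.05e-12 by edgeR, and it was 3.70 without Stem replicate 2. Only 199 of the tested genes, or 1.34%, rose further.

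*Pdgfa*, the gene of the ligand whose homodimer binds PDGFRα alone, also rose. The Stem libraries had 826, 681 and 795 normalized counts, the TGF-β libraries 2022, 1840 and 1993, and the Both libraries 1632, 1708 and 1658. The groups were apart, and TGF-β was again highest. The log2 fold change of TGF-β versus Stem was 1.35 (SE 0.0669), or 2.54-fold, with an adjusted p of 2.62e-09 by edgeR, and 1.27 without Stem replicate 2. An antisense gene, 6330403L08Rik, shares exon sequence with *Pdgfa*, and since the strand setting of the counting is not given in the sources used here, reads of the pair may not be separable. The antisense gene's own counts varied little, from 653 to 755 normalized counts over the 9 libraries.

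*Pdgfd*, whose product is a cleavage-activated ligand of PDGFRβ, was the only ligand gene to fall. It had 868, 918 and 883 normalized counts in Stem. With TGF-β1 it had 392, 389 and 353, and with PFI-3 added 452, 405 and 447. Stem was highest and TGF-β lowest, with no overlap. The log2 fold change of TGF-β versus Stem was -1.24 (SE 0.0653), a 2.35-fold lower level with an adjusted p of 4.7e-09 by edgeR, and -1.21 without Stem replicate 2.

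*Pdgfb*, the gene of the ligand that endothelial cells use to recruit pericytes, was near the limit of detection. It had 0 reads in each Stem library, 18, 14 and 18 reads in TGF-β, and 7, 13 and 11 reads in Both. Against a floor of 3 counts a library, the level in TGF-β was at least 5.31-fold higher than in Stem (adjusted p = 2.34e-05 by edgeR, and 4e-05 without Stem replicate 2) and that in Both at least 2.98-fold higher (adjusted p = 0.000172). This gene passed the filter through the stimulated libraries, so its call is no independent support for the family's direction.

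The promoters of the other ligand genes with an entry in the RefSeq table are shown next, so that genes that rose can be set beside one that fell. All have the same length and build as above. The start of *Pdgfd*, like that of *Pdgfra*, was not found in a GENCODE transcript, whereas those of *Pdgfc* and *Pdgfa* were. The window of *Pdgfc* lies at chr3:81036166-81036465 on the plus strand, *Pdgfa* at chr5:138994895-138995194 on the minus strand, and *Pdgfd* at chr9:6168236-6168535 on the plus strand.
*Pdgfc* promoter: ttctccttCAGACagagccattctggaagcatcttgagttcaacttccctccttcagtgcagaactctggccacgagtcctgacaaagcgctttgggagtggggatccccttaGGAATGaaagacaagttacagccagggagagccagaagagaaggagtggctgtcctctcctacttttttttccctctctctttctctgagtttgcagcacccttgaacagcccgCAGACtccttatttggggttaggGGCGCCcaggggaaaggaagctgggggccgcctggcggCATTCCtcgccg
*Pdgfa* promoter: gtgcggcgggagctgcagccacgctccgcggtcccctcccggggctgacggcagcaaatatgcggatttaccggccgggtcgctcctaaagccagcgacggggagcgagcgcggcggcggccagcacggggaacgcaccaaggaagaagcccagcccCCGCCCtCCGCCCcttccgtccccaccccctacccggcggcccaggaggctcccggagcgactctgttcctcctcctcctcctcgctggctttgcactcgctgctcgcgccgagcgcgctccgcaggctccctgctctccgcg
*Pdgfd* promoter: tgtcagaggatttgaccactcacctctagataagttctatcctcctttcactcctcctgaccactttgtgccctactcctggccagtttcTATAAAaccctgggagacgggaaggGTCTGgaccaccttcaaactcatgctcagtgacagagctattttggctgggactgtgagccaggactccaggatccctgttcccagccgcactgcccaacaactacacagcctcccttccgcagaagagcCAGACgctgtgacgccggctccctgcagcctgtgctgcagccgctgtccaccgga
Beside the Smad box, 5 motifs were searched on both strands. The letters GGCGCC stand for a GC-rich Smad box, and those of the AP-1 motif are TGANTCA, where N is any base. The motif of TEAD factors was taken as GGAATG. The letters GGGCGG were used for the Sp1 motif, and TATAAA for the TATA box. The *Pdgfc* window holds 2 Smad boxes, 1 GC-rich Smad box and 2 TEAD motifs. The *Pdgfa* window holds 2 Sp1 motifs, and the *Pdgfd* window holds 2 Smad boxes and 1 TATA box. Of all promoters in the table, 11.9% hold the GC-rich Smad box, 14.6% the TEAD motif, 35.9% the Sp1 motif, 13.6% the TATA box and 7.79% the AP-1 motif, which none of the 4 printed windows contains. Smad boxes occurred in the windows of *Pdgfra* and *Pdgfd*, which fell, and of *Pdgfc*, which rose, and in neither window of *Pdgfa*, which also rose. No window of *Pdgfrb*, *Pdgfrl* or *Pdgfb* was searched, so the tally does not cover all members that rose. A second *Pdgfa* start in the table, at chr5:138994232-138994531, is not printed and holds 1 Sp1 motif. GC content was 73.3% for the printed *Pdgfa* window, higher than in 94.5% of all promoters, against 55.0% for *Pdgfc* and 56.7% for *Pdgfd*.

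The make-up of ligand transcripts changed with stimulation. Per kilobase, *Pdgfd* was 48.7% ± 2.38 of all ligand signal in Stem, *Pdgfa* 42.5% ± 3.43 and *Pdgfc* 8.81% ± 1.06 (SD, n = 3). After TGF-β1 *Pdgfc* made up 45.5% ± 2.05, *Pdgfa* 45.5% ± 2.13, *Pdgfd* 8.71% ± 0.50 and *Pdgfb* 0.30% ± 0.05. In Both *Pdgfa* made up 45.1% ± 0.92, *Pdgfc* 43.1% ± 1.80, *Pdgfd* 11.6% ± 1.08 and *Pdgfb* 0.19% ± 0.06. *Pdgfa* and *Pdgfc*, the genes of ligands that bind mainly PDGFRα, together held most of the ligand signal in TGF-β and in Both. In Stem their means together also exceeded that of *Pdgfd*, but only slightly. There *Pdgfd* alone held from 46.95% to 51.44% of the signal in each library. With the longest transcript as length, its share in the Stem libraries was lower, from 37.22% to 41.57%. The sum of the 4 ligands was 579 ± 11.4 normalized counts per kilobase for Stem, 1376 ± 4.63 for TGF-β and 1186 ± 42.8 for Both.

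The order of neighboring ligands was less firm than their changes. In Stem *Pdgfd* lay above *Pdgfa*, with libraries from 275 to 291 against 218 to 265 normalized counts per kilobase, but the longest transcript as length reversed that order, at a log2 ratio of *Pdgfd* to *Pdgfa* of -0.39. In TGF-β the libraries of *Pdgfc* (602 to 654) and *Pdgfa* (590 to 648) overlapped. In Both they overlapped too, from 477 to 555 for *Pdgfc* and from 523 to 547 for *Pdgfa*.

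**Figure D3:**
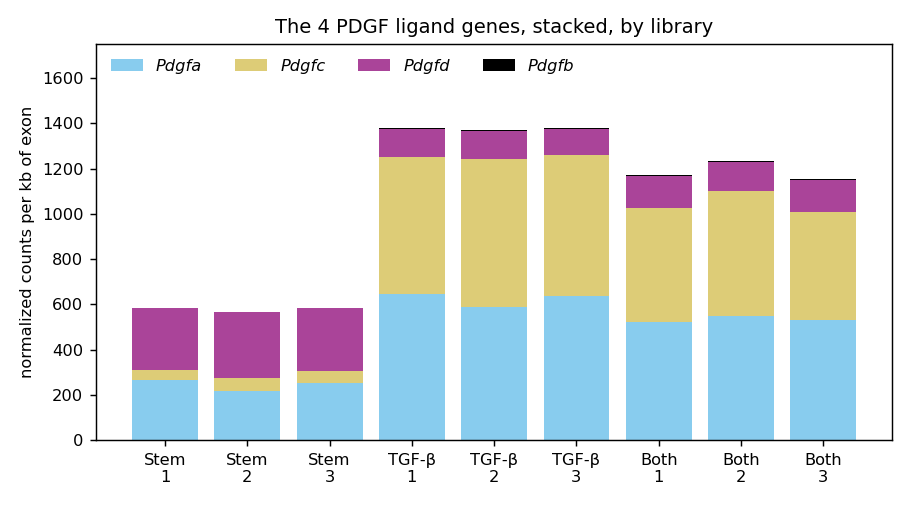
Normalized counts per kilobase of joined exons for the 4 PDGF ligand genes, stacked in a bar for each of the 9 libraries. *Pdgfd* and *Pdgfa* fill most of the Stem bars and *Pdgfa* and *Pdgfc* most of the others, and the mean sums are 579, 1376 and 1186 for Stem, TGF-β and Both.

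Counted as a family, all 7 members passed the threshold of an adjusted p below 0.05 with over 2-fold change in TGF-β versus Stem, 5 higher and 2 lower, and their libraries did not overlap between the groups. The 7 include *Pdgfb*, which passed the filter through the stimulated libraries, so its call and lack of overlap add no support. When a filter at a mean of at least 10 counts left *Pdgfb* untested, 6 members passed. Over all genes tested, 25.1% passed the threshold, 10.6% higher and 14.5% lower, while 75.0% had an adjusted p below 0.05 and 76.8% had no overlap. In Both versus Stem, which shares the Stem libraries with that comparison, again all 7 passed, 5 higher and 2 lower, and *Pdgfb* is included with the same limit. Of all genes 22.8% were past the threshold there, 73.3% had an adjusted p below 0.05 and 74.7% had no overlap. *Pdgfd* was close to the fold limit in Both versus Stem and ended inside it, at -0.98, without Both replicate 2, which left 6 members past the threshold. The log2 fold changes of Both versus Stem were -2.87 for *Pdgfra*, 1.08 for *Pdgfrb*, 2.42 for *Pdgfrl*, 1.12 for *Pdgfa*, 3.33 for *Pdgfc* and -1.03 for *Pdgfd*. Without Stem replicate 2 they were, in the same order, -2.81, 1.08, 2.25, 1.05, 3.42 and -1.0, and *Pdgfb* had an adjusted p of 0.000361 by edgeR.

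Adding PFI-3 to TGF-β1 gave small differences in most of the family, none past the threshold. In Both versus TGF-β 0 of the 7 members passed it by edgeR and 0 by DESeq2, against 0.632% of all genes by edgeR. An unadjusted p below 0.05 was found by edgeR for 5 members and for 24.1% of all genes. The libraries were apart for 5 members, against 32.7% of all genes. An adjusted p below 0.05, which 8.92% of all genes had, was reached by 3 members, *Pdgfra*, *Pdgfa* and *Pdgfc*. *Pdgfc* was lower by 0.29 on the log2 scale (SE 0.0634, adjusted p = 0.0142) and *Pdgfa* by 0.23 (SE 0.063, adjusted p = 0.0436), while *Pdgfra* was higher by 0.205 (SE 0.058, adjusted p = 0.0485). These calls depended on which libraries were kept. When a single TGF-β or Both library was left out, 0 to 2 members had an adjusted p below 0.05. The number was 1 with TGF-β replicate 1 left out, 2 with Both replicate 2 left out, and 0 with TGF-β replicate 2 or 3 or Both replicate 1 or 3 left out. The adjusted p then ran from 0.00656 to 0.0753 for *Pdgfc*, from 0.0543 to 0.151 for *Pdgfa* and from 0.0379 to 0.199 for *Pdgfra*.

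For the other members the intervals bound the difference. The log2 fold change of Both versus TGF-β was 0.06 for *Pdgfrb*, with a 95% interval from -0.05 to 0.17 and an adjusted p of 0.552 by edgeR. For *Pdgfrl* it was -0.07, with an interval from -0.39 to 0.25, and the sign turned without TGF-β replicate 1. *Pdgfd* was at 0.20, with an interval from 0.05 to 0.35 and an adjusted p of 0.088. *Pdgfb*, with few reads, was at -0.83 with a wide interval, from -1.57 to -0.09, and an adjusted p of 0.157.

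**Figure D4:**
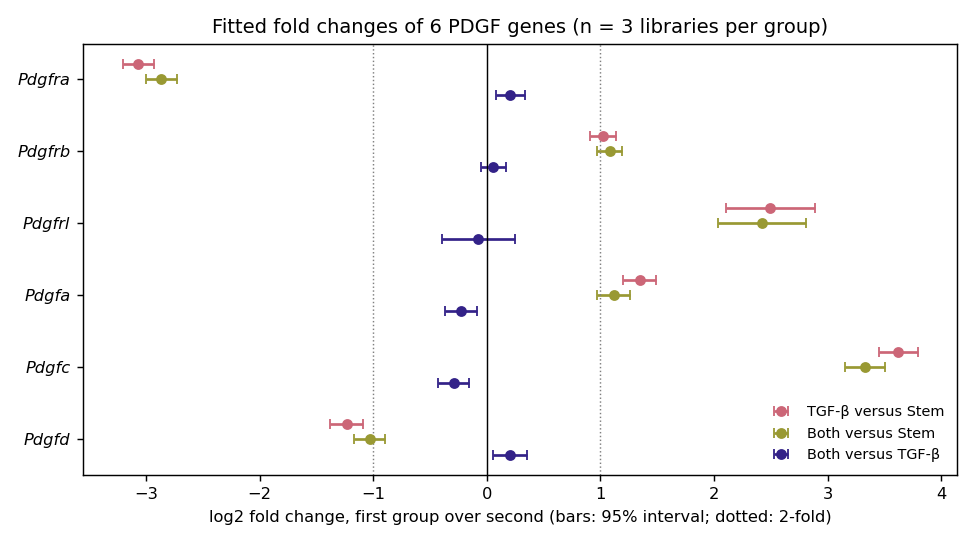
Log2 fold changes with 95% intervals of 6 PDGF genes in the 3 comparisons, where *Pdgfb* is left out because its Stem libraries have 0 reads. *Pdgfra* lies near -3 and *Pdgfc* beyond 3 against Stem, and the points of Both versus TGF-β lie between -0.29 and 0.205.

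Genes that act on PDGF ligands before they bind shifted in both directions. Of 10 tested genes for ligand processing and binding, 5 rose and 2 fell past the threshold in TGF-β versus Stem, against 25.1% of all genes in either direction, with a median log2 fold change of 0.73 against a median of -0.003 over all genes. The median was 0.08 with no filter on low counts, where further genes of the list enter. The genes of both plasminogen activators fell. *Plau*, the urokinase that can cleave PDGF-D, went from 2926 ± 1086 to 96.9 ± 13.8 normalized counts (SD, n = 3), and *Plat*, the tissue plasminogen activator that cleaves PDGF-C, had a log2 fold change of -2.52. *Lox*, whose product is a collagen cross-linking oxidase also known to act on PDGFRβ, rose by 3.60 on the log2 scale, from 20690 to 250144 normalized counts. *Sparc*, a matrix protein that binds PDGF-B, rose by 2.08. *St14*, the gene of matriptase, another protease that can activate PDGF-D, rose by 2.64 from a low level of 9.33 ± 4.21 to 58.6 ± 12.2 normalized counts.

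Of the co-receptors, *Cspg4*, the proteoglycan NG2 that binds PDGF-A, rose by 4.15 on the log2 scale, from 904 ± 295 to 16076 ± 456 normalized counts. *Nrp1* had a log2 fold change of -0.96 and *Lrp1* of -0.27, both inside the 2-fold limit. However, a second gene of these 3 passed it without TGF-β replicate 1, and also with total counts as the library scale. Of 20 receptor-proximal signaling genes, 3 rose past the threshold and 0 fell, against 10.6% of all genes higher and 14.5% lower. These were *Gab2*, an adaptor, with a log2 fold change of 1.86, *Pik3cb*, a catalytic PI3K subunit, with 1.48, and *Fyn*, a Src family kinase, with 1.19. With no fold minimum 13 were lower and 3 higher at an adjusted p below 0.05 by edgeR, against 75.0% of all genes in either direction, and the list's median was -0.29. None of the 7 tested genes for receptor turnover and phosphatases passed the threshold by edgeR, against 25.1% of all genes, while 6 had an adjusted p below 0.05, a share near the 75.0% of all genes.

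The RAS-ERK output list holds genes that ERK signaling is known to induce, many of which feed back on it. Of its 12 members 8 fell and 0 rose past the threshold in TGF-β versus Stem, against 14.5% of all genes lower and 10.6% higher, with a median of -1.30. Without Stem replicate 2 the number was 7. With no fold minimum 9 were lower and 2 higher at an adjusted p below 0.05 by edgeR, against 75.0% of all genes in either direction. The 2 higher genes were *Ier3*, at 0.78 on the log2 scale, and *Dusp4*, at 0.30. *Spry2*, a feedback inhibitor, fell by 3.13 on the log2 scale, from 7429 ± 330 to 847 ± 26.6 normalized counts. *Dusp6*, an ERK phosphatase, fell by 2.02, *Spry1* by 1.94 and the ETS factor gene *Etv5* by 1.78. The stem cell medium contains growth factors that the other medium does not, and more serum. The part of the medium in these values was not tested.

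With PFI-3 no gene of the 6 lists passed the threshold in Both versus TGF-β, by edgeR, against 0.632% of all genes. An adjusted p below 0.05 was found for 16 of the 66 tested genes, 6 higher and 10 lower, against 8.92% of all genes. A single RAS-ERK gene passed without TGF-β replicate 1, and a single ligand processing gene without TGF-β replicate 2. The higher genes were *Plat* (0.63 on the log2 scale), *Nrp1* (0.18), *Pik3ca* (0.15), *Spry2* (0.45), *Ier3* (0.84) and *Csf1r* (0.86). The lower genes were *Pcsk5* (-0.54), *St14* (-0.85), *Sparc* (-0.31), *Shc1* (-0.19), *Gab2* (-0.14), *Spry1* (-0.30), *Etv4* (-0.99), *Etv5* (-0.41), *Vegfa* (-0.21) and *Pgf* (-0.58). The falls of *Pdgfc* and *Pdgfa* there were of 0.29 and 0.23, as given above.

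**Figure D5:**
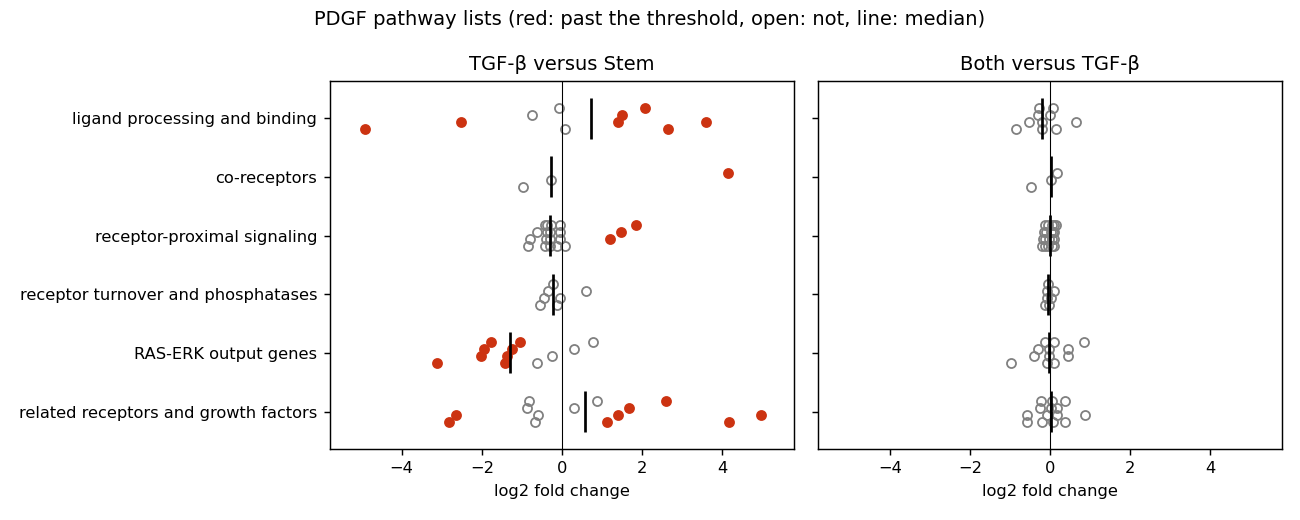
Log2 fold changes of the tested genes in the 6 PDGF pathway lists for TGF-β versus Stem and Both versus TGF-β, with a point for each gene, filled where past the threshold, and a line at the list's median. The rightmost point of the related receptors is *Kdr*, which had at most 2 reads in any Stem library, so its fitted value depends on the prior count. In TGF-β versus Stem the RAS-ERK output genes have a median of -1.30 and the ligand processing genes one of 0.73, and in Both versus TGF-β all points lie between -0.99 and 0.86.

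Markers of other cell types were read beside the receptors, since in bulk libraries fewer cells of a type and less RNA per cell cannot be told apart. The summed level of 7 adventitial progenitor and fibroblast markers ran from 51791 to 62475 normalized counts in Stem libraries, from 15825 to 16038 in TGF-β libraries and from 10875 to 11520 in Both. *Dpt* and *Dcn* carried most of the sum in Stem, and the list did not move as one, since *Pi16* went from a mean of 508 in Stem to 5771 in TGF-β and 3828 in Both. The sum of 12 mural markers ran from 13515 to 15636 in Stem libraries, from 46237 to 48889 in TGF-β and from 32449 to 34338 in Both. That list was mixed too: *Rgs5* and *Cspg4* were higher after TGF-β1, while *Abcc9* went from a mean of 648 to 66.7, *Kcnj8* from 56.8 to 4.71 and *Myh11* from 263 to 88.3. The part of cell make-up in either receptor's values was not tested. All 7 and all 12 of these markers were above 3 counts in at least 1 library of every group.

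Markers of cell types that can make PDGF-B were read beside *Pdgfb*. The 6 endothelial markers summed to 106 to 236 normalized counts in Stem libraries, 52.9 to 84.9 in TGF-β and 49.2 to 66.1 in Both. The list went in both directions. *Emcn* went from a mean of 104 in Stem to 8.27 in TGF-β and *Tek* from 45.8 to 18.3, while *Kdr* went from 0.72 to 26.1 and *Cdh5* from 1.05 to 7.80, the direction of *Pdgfb*. The defining gene *Pecam1* had at most 13 reads in any library and *Tie1* at most 3.

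The 6 macrophage and leukocyte markers summed to 108 to 127 normalized counts in Stem libraries, 118 to 131 in TGF-β and 156 to 165 in Both, most of it from *Lyz2*, with up to 163 reads a library. *Ptprc* had at most 3 reads, *Adgre1* and *Cd3e* had 0 in every library, and *Cd68* went from a mean of 3.53 in Stem to 13.2 in TGF-β and 14.3 in Both. The 5 platelet and megakaryocyte markers summed to between 39.1 and 57.8 normalized counts over all libraries. *Itga2b* had up to 43 reads, *Gp1bb* went from a mean of 4.65 to 19.5 and 16.4, *Pf4* had at most 2 reads and *Ppbp* had 0. The cells had been sorted as YFP+ and Sca1+ and then expanded in culture, and the part of other cell types in the *Pdgfb* reads was not tested.

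The genes whose pattern over the 9 libraries was most like each receptor's were found among 10899 genes of at least 100 normalized counts. For *Pdgfra* these were *Lrp6*, *Plpp3* and *Colec12*, with Pearson's r across libraries of 0.9997, 0.9997 and 0.9995. For *Pdgfrb* they were *Stx2*, *Chpf2* and *Mapre3*, with r of 0.9986, 0.9985 and 0.9978. *Colec12* went from 55292 normalized counts in Stem to 4017 in TGF-β and 5128 in Both, and *Stx2* from 1802 to 4355 and 4637. These r values rest mainly on the gap between Stem and the other groups and are a description.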

How the data were processed

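RNA-Seq was done by the authors on ribosome-depleted total RNA, and they deposited raw read counts per Ensembl gene, without normalization. The study's methods name STAR as the aligner, while the submitters' processing notes name HISAT2 2.2.1, SAMtools 1.13 and HTSeq 0.11.3, with build GRCm39; the strand setting of the counting is not given in the sources used here. Of 55416 identifiers, 52083 matched a symbol. Counts were analyzed in R 4.3.3 with edgeR 4.0.16: after filterByExpr and TMM scaling, a single fit of the 9 libraries, with group as its term, gave quasi-likelihood tests of 14879 genes, with p-values adjusted over all of these by Benjamini-Hochberg. DESeq2 1.42.0 was an alternative, beside other scalings, filters and left-out libraries. The procedure was tested on simulated data. Gene lengths came from a GRCm38 annotation, so no gene coordinates in GRCm39 are given, and the promoter windows carry those of the RefSeq table's build. Members, lists and the rule for named genes (all members, the largest rise and fall of each list, and the closest patterns) were chosen with earlier results of these data known; others were named after their values were seen. The study calls the replicates independent, but the labels do not say that they were separate cultures, and the p-values measure only the spread between these samples.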

Additional observations from a re-analysis of the deposited data

How the results depend on the processing

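In TGF-β versus Stem and Both versus Stem each of the 7 members kept its direction and an adjusted p below 0.05 under every alternative that tested it, other than the TREAT test. A mean of at least 10 counts left *Pdgfb* untested. With total counts as the scale 6 members passed the fold minimum in each comparison. *Pdgfrb* fell short of it, at 0.904 and 0.972 on the log2 scale. The TREAT test against 2-fold called 2479 genes in TGF-β versus Stem in place of 3739. It called 4 in Both versus TGF-β in place of 94, and 2104 in Both versus Stem in place of 3385. Among the members it called 6 in TGF-β versus Stem and 4 in Both versus Stem. *Pdgfrb* was called in neither (adjusted p = 0.587 and 0.127 by TREAT). *Pdgfa* (adjusted p = 0.0952 by TREAT) and *Pdgfd* (0.621) were also not called in Both versus Stem. Without a filter 163 genes were past the threshold in Both versus TGF-β. In that comparison, leaving out each library in turn left between 0 and 2 members with an adjusted p below 0.05 in place of 3, and the log2 fold change of *Pdgfrl* ran from -0.214 to 0.031, turning positive without TGF-β replicate 1. DESeq2 size factors or total counts each left 2. With the longest transcript as length, the Stem log2 ratio per kilobase was 0.061 for *Pdgfra* over *Pdgfrb* and -0.386 for *Pdgfd* over *Pdgfa*, each mean with its sign reversed and the first with overlapping libraries. The cause of these shifts was not tested beyond what each alternative changes by construction. Replicate numbers were not taken to pair the libraries: deviations of same-numbered libraries correlated between -0.06 and 0.18, over 0.1 for the 3 pairs of replicate 2 only, and not every library correlated best with its own number. A replicate block gave 3736, 120 and 3394 genes past the threshold, 7, 0 and 7 members, adjusted p-values in Both versus TGF-β of 0.000355 for *Pdgfc*, 0.0126 for *Pdgfa* and 0.0253 for *Pdgfra*, and receptor ratio differences of -4.09, 0.15 and -3.94. Among the members, low counts limit *Pdgfb* most.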

Other observations

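Genes of the related receptor and growth factor families were followed beside the PDGF genes. Of 14 tested, 6 rose and 2 fell past the threshold in TGF-β versus Stem by edgeR, against 25.1% of all genes, with a median log2 fold change of 0.58. The median was 0.299 in a fit of only the 6 libraries compared and 0.306 with no filter on low counts. The 6 that rose include *Kdr*, which had at most 2 reads in any Stem library. *Pgf*, a placental growth factor that binds the VEGF receptor FLT1, rose by 4.17 on the log2 scale, from 13.3 ± 3.95 to 240 ± 11.0 normalized counts (SD, n = 3). *Vegfa*, the principal endothelial growth factor gene, rose by 2.59, and the receptor gene *Flt1* by 1.68. *Vegfd*, another member of that family, fell by 2.83, from 19034 ± 2404 to 2674 ± 126 normalized counts, and *Kitl*, the ligand of KIT, fell by 2.64. In Both versus Stem *Kitl* had the largest fall of the list, at -2.74, and *Pgf* rose by 3.58. None of these genes passed the threshold in Both versus TGF-β by edgeR, against 0.632% of all genes, and 3 of the 14 had an adjusted p below 0.05, against 8.92%.

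*Ier3*, an immediate early gene of the RAS-ERK list, was the single gene of that list to rise past the threshold in Both versus Stem, at 1.62 on the log2 scale. Its mean was 683 ± 90.4 normalized counts for Stem, 1174 ± 86.8 for TGF-β and 2104 ± 52.7 for Both (SD, n = 3).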
